A study of Drosophila melanogaster with 4 samples.

Results

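The septate junction is the occluding junction of insect epithelia, and the 10 genes described here encode core parts of its pleated form. They were taken by symbol, as a list of junction components proposed with earlier results of these data in view: Gli, Mcr, cold, sinu, kune, Nrx-IV, cora, vari, Atpalpha and nrv2. Each symbol was found once among the 15682 genes of the comparison, and each passed the authors' filter on low counts. Because the list was chosen with the fold changes known, the fold changes of its members are given as a description and not as a test.

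The libraries were made from follicle cells of the Drosophila melanogaster ovary, the somatic epithelium around the germ line. EGFR-activated cells carried UAS-EGFR-lambdatop, an active version of the EGF receptor, together with UAS-CD8-GFP, a membrane-bound fluorescent marker. Control cells carried UAS-CD8-GFP only. There were 2 groups of 2 libraries each, and the submitters call the replicates biological. All flies grew up at 18 °C and spent 7 to 10 days of adult life at 29 °C before dissection. Which driver expressed the UAS transgenes and whether ovaries were pooled are not given in the sources used here.

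In a pleated septate junction, transmembrane and lipid-anchored proteins form rows of septa between neighbouring lateral membranes, and cytoplasmic scaffolds hold them in a stable complex. The sodium-potassium pump is a structural member of that complex as well as an ion transporter. Where 3 cells meet, a separate set of proteins closes the corner. In the follicular epithelium these junctions mature gradually while the egg chamber grows, and their components also have roles in adhesion before septa are seen.

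All values come from the authors' deposited table of the comparison: a mean normalised count over all libraries (read counts divided by size factors, which even out sequencing depth), and a log2 fold change, EGFR-activated over control, with its standard error and adjusted p from DESeq2. The means summed to 21565892 over all genes. A gene is called lower or higher at an adjusted p under 0.05; of 9409 genes with an adjusted p, 17.5% were lower and 18.0% higher. Values per library were not used here, so groups cannot be shown sample by sample. Values after ± are standard errors of the fold change from the authors' model, not a measured spread between libraries. The targeted gene, Egfr, had a value of 1.498 ± 0.35 (SE) and was called higher in the authors' deposited table, with reads of the transgene and the native gene not separated. In bulk RNA, fewer cells of one type and less RNA per cell cannot be told apart.

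All 10 core septate junction genes were lower in EGFR-activated cells, where 17.5% of all genes were, and nothing is read from that count because the contrast was known when they were listed. Their log2 fold changes ran from −1.69 to −0.67 with a median of −1.42, against a median of 0.01 over the 12650 genes with a p-value. In 9 of the 10 the estimated transcript level in EGFR-activated cells was under 0.5 of that in control cells. The whole 95% interval lay under 0.5 in 3 of them (Gli, Mcr and cora). Among all genes with a p-value, 9 members lay in the lowest 10% of fold changes and the remaining member, vari, at the percentile of 16.0. Genes as abundant as these were called more often than others: 25.8% were lower among the 3526 genes whose mean reached 1000.

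**Figure D1:**
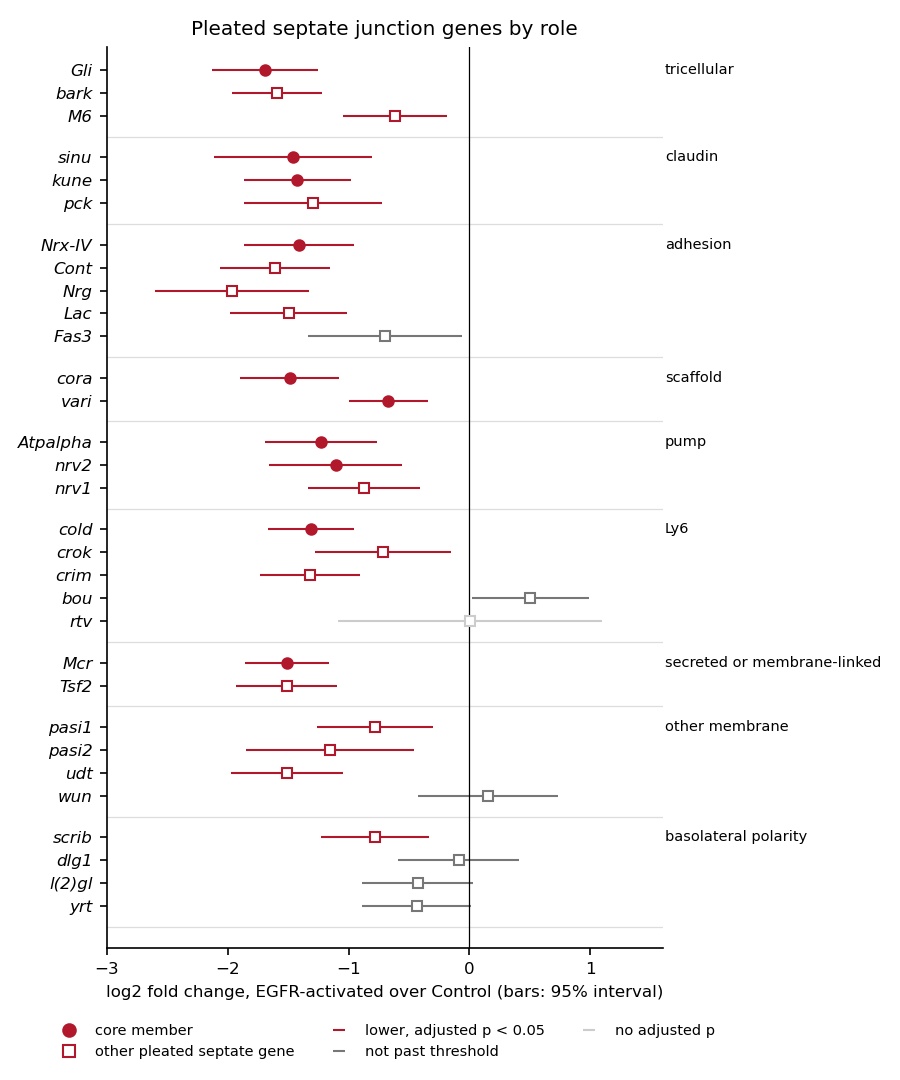
Log2 fold change, EGFR-activated over control, of 31 pleated septate junction genes from the authors' deposited table, grouped by role; filled circles are the 10 core genes, open squares the other 21, bars the 95% interval, and colour the call. The core genes lie between −1.69 (Gli) and −0.67 (vari), and of the other genes bou, wun and rtv lie at or above 0.

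The tricellular and complement-like members came first in size. Gli encodes gliotactin, a cholinesterase-like transmembrane protein without enzyme activity that marks the corners where 3 cells meet. In the authors' deposited table it had a mean normalised count of 1573 and a log2 fold change of −1.69 ± 0.22, a ratio of 0.310 with a 95% interval of 0.229 to 0.420. That was the largest fall among the 10. Mcr, a thioester-family protein related to complement and macroglobulins that is needed for septate junctions, fell by 1.51 ± 0.18 on the log2 scale to a ratio of 0.352 in the same deposited table. Of all 10 its standard error was the smallest but for vari.

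The 2 claudins among the members gave nearly the same value. Claudins are small proteins that span the membrane 4 times and form paracellular seals in animals. In the authors' deposited table sinu (sinuous) was at −1.46 ± 0.33 and kune (kune-kune) at −1.42 ± 0.23, with ratios of 0.364 and 0.373. The standard error of sinu was the largest of the 10, and its 95% interval ran from 0.231 to 0.574. The remaining claudin examined, pck (also called megatrachea), fell as well, by 1.295 ± 0.29 on the log2 scale (adjusted p = 9.20e-05 in the authors' deposited table).

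Nrx-IV, the neurexin IV adhesion receptor that anchors the complex through its cytoplasmic tail, was at −1.41 ± 0.23 in the authors' deposited table. Its cytoplasmic partner cora (coracle, a FERM-domain protein of the band 4.1 type) was at −1.49 ± 0.21, with ratios of 0.376 for Nrx-IV and 0.356 for cora. The scaffold gene vari (varicose, a membrane-associated guanylate kinase that also binds this tail) changed least, at −0.67 ± 0.17, a ratio of 0.629 with a 95% interval of 0.5003 to 0.790. The interval of vari lay wholly above those of Gli, Mcr and cora and overlapped those of the other 6 members; differences between genes were not tested. In the BDGP6 annotation 15.2% of the exonic bases of vari also belong to Pomp on the opposite strand, a proteasome assembly gene that was higher in the authors' deposited table, by 1.42 ± 0.19 (adjusted p = 1.57e-11). Whether reads were counted by strand is not stated in the labels, and the part of these shared bases in the value of vari was not tested. Apart from vari, Mcr shares 1.97% of its exonic bases with an antisense RNA and cold 2.07% with Ptth, and the other 7 members share none.

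The pump genes were lower too. Atpalpha, the catalytic subunit of the sodium-potassium pump, was at −1.23 ± 0.24 in the authors' deposited table, a ratio of 0.427 with a 95% interval of 0.310 to 0.588. The beta subunit gene nrv2 (nervana 2), which is needed for septate junctions, was at −1.11 ± 0.28, a ratio of 0.464. Its neighbour on the chromosome and close relative nrv1 fell by 0.87 ± 0.24 on the log2 scale (adjusted p = 0.00134), a ratio of 0.547. All 3 intervals overlapped. The neuronal beta subunit gene nrv3 had a mean of only 57.2 and was at −0.26 ± 0.37, not past the test (adjusted p = 0.635), while JYalpha, a relative of Atpalpha, had a mean of 0.324 and CG3701, CG5250 and CG33310 were listed at 0.

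The last member, cold (coiled), encodes a lipid-anchored protein of the Ly6 family, small secreted or membrane-tethered proteins with a 3-fingered fold, several of which are needed to assemble septate junctions in the fly. It was at −1.31 ± 0.18 in the authors' deposited table, a ratio of 0.404. Of its relatives with a septate junction role, crim (crimpled) fell by 1.32 ± 0.21 (adjusted p = 1.16e-08) and crok (crooked) by 0.72 ± 0.29 (adjusted p = 0.0374). The founding member of that group, bou (boudin), was at 0.51 ± 0.25 without passing the adjusted threshold (p = 0.0421 before adjustment by the authors' DESeq2 test), and rtv had a mean of 5.81 and no adjusted p. On the deposited scale bou had the highest value of the 31 pleated genes examined, and with the trend on gene length removed it was at −0.22.

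The levels of the members spanned 18.4-fold per kilobase of exon. Per kb, Atpalpha had a mean normalised count of 6465 and cora 5422, at the percentiles of 98.4 and 98.1 among detected genes with a known length. They were followed by sinu (2347 per kb), kune (1641 per kb), vari (1410 per kb), cold (1371 per kb) and Mcr (1075 per kb). At the low end stood nrv2 (894 per kb), Nrx-IV (792 per kb) and the corner protein gene Gli (352 per kb). No error can be put on these means, so the order of genes that differ by little, such as vari and cold, is not established; per kb of the longest transcript, nrv2 (1196 per kb) stood above Mcr (1075 per kb). Among pump genes nrv1 had 5.58 times the level of nrv2 per kb of exon. On that scale nrv1 and nrv2 summed to 5882 per kb, against 6465 per kb for the alpha subunit they pair with. These relations depend on the length used: per kb of the longest transcript, Atpalpha was at 7788, nrv1 at 4988 and nrv2 at 1196. At the ends of this range the fold changes were −1.23 for Atpalpha and −1.69 for Gli.

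**Figure D2:**
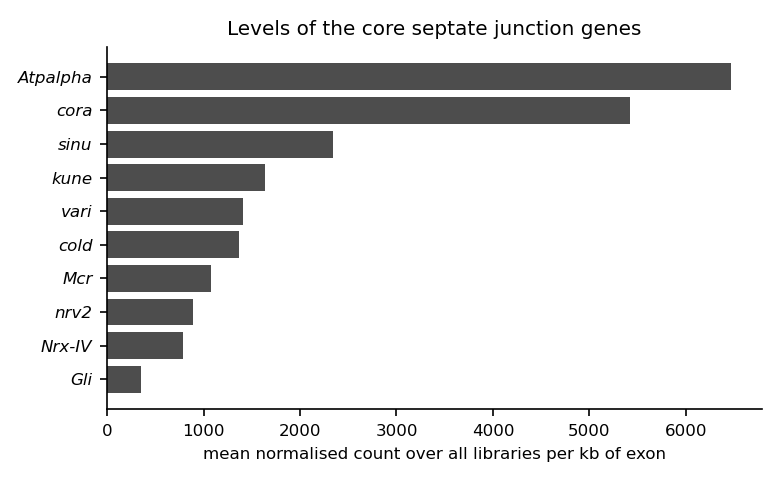
Mean normalised count over all 4 libraries per kb of annotated exon for the 10 core septate junction genes. Atpalpha and cora stand apart at 6465 and 5422 per kb, and Gli is lowest at 352 per kb; the bars have no error because values per library were not used.

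**Figure D3:**
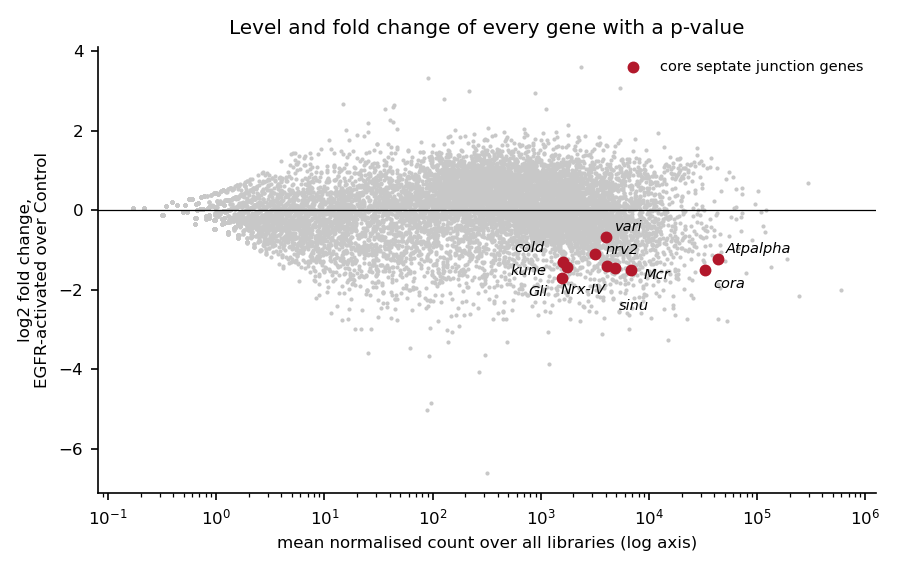
Log2 fold change, EGFR-activated over control, against mean normalised count for the 12650 genes with a p-value (grey), with the 10 core septate junction genes in red. All 10 lie below 0 and to the right of a mean of 1000.

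The wider junction followed in part. A further 21 pleated septate junction genes were listed by the function of their products, with nrv1 among them as a pump subunit gene. This list, like those below, was chosen with earlier results of these data known, so such counts are a description and not a test. By the authors' deposited values, 14 of these genes were lower, 0 higher and 6 not past the test, and rtv had no adjusted p. Among all genes, 17.5% were lower. The median over these 21 was −0.78. In the adhesion complex that binds Nrx-IV, the L1-type immunoglobulin protein gene Nrg (neuroglian) was at −1.97 ± 0.32 (adjusted p = 3.82e-08), a lower value than that of any core gene, and Cont (contactin) at −1.61 ± 0.23 (adjusted p = 2.40e-10). The lipid-anchored immunoglobulin protein gene Lac (lachesin) was at −1.496 ± 0.25 (adjusted p = 4.47e-08). At the corners, bark (listed as CG3921, its product Anakonda recruits Gliotactin) was at −1.59 ± 0.19 (adjusted p = 8.19e-15), close to Gli. The tricellular gene M6 was at −0.62 ± 0.22 (adjusted p = 0.0187). Tsf2, which encodes the iron-binding melanotransferrin of the septate junction, was at −1.51 ± 0.21 (adjusted p = 6.76e-11), and udt, which is needed for these junctions, at −1.51 ± 0.24 (adjusted p = 6.42e-09). The tetraspan genes pasi1 and pasi2 were at −0.78 ± 0.25 and −1.15 ± 0.35 in the authors' deposited table, and both were lower (adjusted p = 0.00671 and 0.00541).

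The polarity proteins that sit at the same lateral membrane gave smaller values. Of scrib, dlg1, l(2)gl and yrt, which set up the basolateral domain, scrib alone was lower, at −0.78 ± 0.23 (adjusted p = 0.00314), and that call ended when the trend on gene length was removed (−0.16, adjusted p = 0.667). In the authors' deposited table dlg1 was at −0.09 ± 0.26, l(2)gl at −0.43 ± 0.23 and yrt at −0.43 ± 0.23, none past the test. The median over these 4 was −0.43, against −0.78 over the 21 further pleated genes that include them. The difference was not tested. The adhesion protein gene Fas3, which lines lateral membranes of follicle cells, was at −0.70 ± 0.33 and the lipid phosphatase gene wun at 0.16 ± 0.29, and both missed the threshold (adjusted p = 0.0788 and 0.729).

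Genes of the smooth septate junction, the form found in the gut and renal tubules, gave no call. By the authors' deposited values, 0 of 4 passed the DESeq2 test in either direction, where 17.5% of all genes were lower and 18.0% higher. At an unadjusted p under 0.05, 0 passed. Ssk was at 0.44 ± 0.50, mesh at 0.20 ± 0.53, Tsp2A at 0.34 ± 0.50 and hoka at 0.16 ± 0.51. The 95% intervals of mesh and hoka reached down to −0.84 and −0.85 on the log2 scale. Of 6 genes for the endocytosis and recycling of junction proteins (Rab5, Rab11, Vps35, wus, shi and Chc), 0 passed in either direction, 0 at an unadjusted p under 0.05, with values from −0.30 to 0.45. Lists of 4 and 6 genes are too short to be set against the shares over all genes. The transcription factor gene grh (grainy head), known to regulate epithelial barrier and junction genes in the fly, had a mean of 6.29 and no adjusted p.

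Adherens junctions, the belt of cadherin and catenins apical to the septate junction, were measured by 10 genes. Of these, 4 were lower, 0 higher and 6 not past the test, with a median of −0.26, where 17.5% of all genes were lower. Their median exonic length was 5166.5 bp, and of genes of 4 to 8 kb with a mean of at least 1000, 37.5% were lower. The linker gene cno (canoe) was at −1.18 ± 0.25 (adjusted p = 4.10e-05), Vinc (vinculin) at −0.93 ± 0.31 (adjusted p = 0.0118), the E-cadherin gene shg at −0.72 ± 0.26 (adjusted p = 0.0224) and jub at −0.57 ± 0.21 (adjusted p = 0.0214) in the authors' deposited table. The catenin genes arm, alpha-Cat and p120ctn were at 0.00, −0.08 and 0.02, none past the test. With the length trend removed, jub was called lower (−0.57, adjusted p = 0.0263) and pyd higher (0.65, adjusted p = 0.0353). Vinc, cno and shg were then at −0.74, −0.615 and −0.33 and missed the threshold (adjusted p = 0.0580, 0.0549 and 0.385).

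Gene length moved with fold change across the whole table, and the members were read against it. Among genes whose mean reached 1000, the median log2 fold change was 0.85 for exonic lengths up to 1 kb and −0.52 for those above 8 kb, and 10.0% and 45.5% of these genes were lower. The members do not follow that order: kune and cold, with 1060 and 1158 bp of exon, were at −1.42 and −1.31, where genes of 1 to 2 kb had a median of 0.38 and 12.2% were lower. Mcr, cora and Atpalpha, each over 6 kb, were at −1.51, −1.49 and −1.23, where genes of 4 to 8 kb had a median of −0.38 and 37.5% were lower. After a smooth trend on length was subtracted over 7737 genes, all 10 members were still lower, where 16.9% of those genes were. Their median became −1.12, with 4 members further from 0 than before and 6 nearer to it. The order changed: kune (−1.958), cold (−1.79) and sinu (−1.62) then had the lowest values, Gli was at −1.45, Atpalpha at −0.83 and vari, again nearest to 0, at −0.69.

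**Figure D4:**
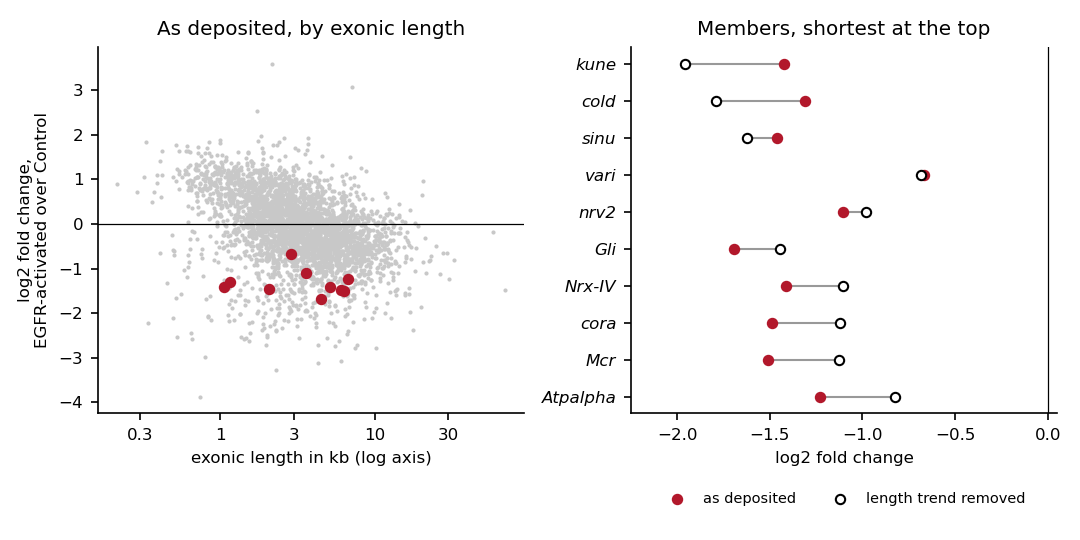
Left, log2 fold change, EGFR-activated over control, against exonic length for genes with a mean of at least 1000 (grey) and the 10 core septate junction genes (red). Right, each member as deposited (filled) and after removal of the length trend (open), shortest gene at the top; kune is at −1.42 as deposited and −1.958 after the removal, Atpalpha at −1.23 and −0.83, and all 10 lie below 0 either way.

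The genes beside the members on the chromosome were read next to them. Of 20 such genes, the nearest on each side of each member that is annotated as coding in BDGP6 and does not overlap it, 16 had an adjusted p: 2 were lower and 6 higher in the authors' deposited table, where 17.5% and 18.0% of all genes were. The 2 lower neighbours were nrv1, the related pump subunit gene, beside nrv2, and CG9328 beside vari (−1.37 ± 0.26). Next to kune, scaf was at 1.98 ± 0.32, and next to cora, CG7137 was at 1.52 ± 0.26. Next to Atpalpha, CG31191 was at 2.195 ± 0.50 with a mean of only 25.4. The other higher neighbours were Sucb beside sinu (1.21 ± 0.24), CG5642 beside Nrx-IV (0.63 ± 0.26) and l(2)35Df beside Gli (0.50 ± 0.20).

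**Figure D5:**
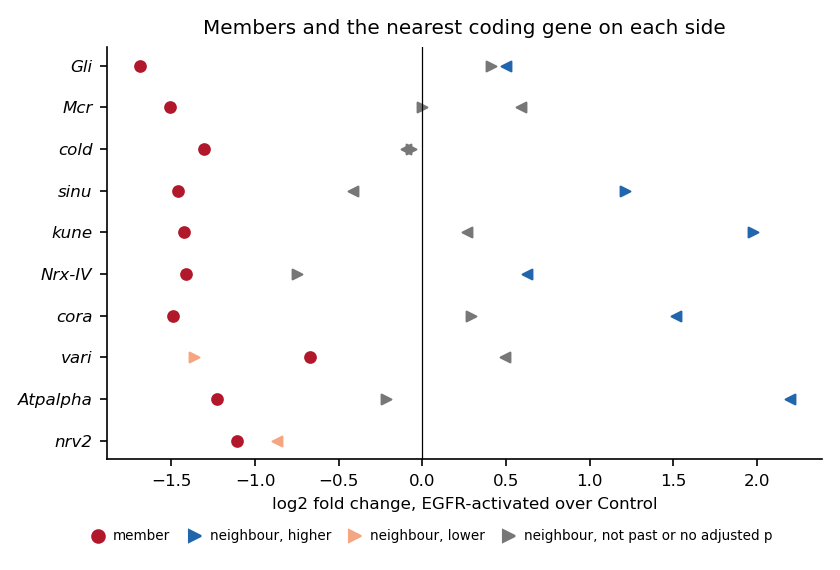
Log2 fold change, EGFR-activated over control, of each core septate junction gene (circle) and of the nearest coding gene in BDGP6 that does not overlap it, on its left and right (triangles pointing that way), coloured by call. The circles lie between −1.69 and −0.67, while 6 neighbours are higher and 2 are lower past the threshold; the gene listed as CR43610 beside nrv2, annotated as coding in BDGP6, was at 0 and is not drawn.

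Relatives of the members by protein family were lower in some families and not in others. Over all genes with an adjusted p, 17.5% were lower and 18.0% higher. Of the thioester proteins, TepII, TepIII and TepIV were at −1.15 ± 0.30, −1.94 ± 0.37 and −0.97 ± 0.23 in the authors' deposited table and all were lower (adjusted p = 0.000789, 2.86e-06 and 0.000229). Of 12 Ly6 family genes examined, cold included, 10 had an adjusted p, and of these 7 were lower and 0 higher; beyond those named above, atilla was at −2.09 ± 0.28, bero at −1.69 ± 0.35, CG6583 at −1.16 ± 0.27 and qvr at −2.202 ± 0.35. Glt, which encodes glutactin, a basement membrane protein related to gliotactin, was at −1.69 ± 0.24 (adjusted p = 7.55e-11), within the standard error of Gli. The other relatives of Gli examined missed the threshold: Nlg1 was at −0.08 ± 0.36, Nlg2 (listed as neuroligin) at −0.297 ± 0.46 and Nrt at 0.49 ± 0.46. FERM relatives of cora were lower in 3 of 5 cases: Mer at −1.16 ± 0.19, ex at −0.76 ± 0.27 and Moe, the most abundant of them, at −0.49 ± 0.20 (adjusted p = 5.93e-08, 0.0156 and 0.0378), the calls of ex and Moe ending with the length trend removed. Among guanylate kinase relatives of vari, CASK was at −0.86 ± 0.29 and metro at 1.08 ± 0.31 (adjusted p = 0.0111 and 0.00247). The call of CASK ended with the length trend removed (−0.37, adjusted p = 0.365). The relative with the highest mean normalised count, pyd, was at 0.05 ± 0.25. Of the neurexin relatives, Nrx-1 was lower (mean 26.2, −1.46 ± 0.48, adjusted p = 0.00975), and axo, at −0.29 ± 0.54, missed the threshold (adjusted p = 0.719).

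Other cell types in an ovary preparation also have septate junctions or can contribute RNA, and their markers were read beside these values. Over all genes with an adjusted p, 17.5% were lower and 18.0% higher. Of 10 muscle sheath markers 8 were lower (median −1.35, means summing to 6897). Of 3 fat body markers with a p-value all 3 were lower (median −1.67, sum 11813, Fbp1 listed at 0). Of 8 germ line markers (median 0.09, sum 11137) 0 were lower or higher by the DESeq2 test, with 0 at an unadjusted p under 0.05. Tracheal cells and glia have pleated septate junctions of their own. Of 5 tracheal markers 2 were lower, serp at −2.91 ± 0.29 and btl at −1.90 ± 0.35. Both pio (mean 407, −0.50 ± 0.22) and verm (mean 17.8, −0.98 ± 0.51) missed the threshold, and the tracheal selector gene trh had a mean of 3.30. Of 5 neuronal and glial markers 1 was lower, the barrier receptor gene moody (mean 3980, −1.24 ± 0.23). Both elav (mean 1945, −0.53 ± 0.36) and brp (mean 26.95, −0.86 ± 0.50) missed the threshold, and the glial genes repo and gcm had means of 2.54 and 3.02. Of 6 hemocyte markers srp was lower (mean 10078, −1.53 ± 0.25). Missing the threshold were Pxn (mean 58.0, −0.92 ± 0.40), Hml (mean 36.0, −0.10 ± 0.52) and eater (mean 8.99, −0.51 ± 0.54). NimC1 and He had means of 7.03 and 1.504. The part of these cells in the values of the junction genes was not tested.

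Follicle cell markers were present and did not move as a block. Their 8 means summed to 230600. Of the 8, 2 were lower, 1 higher and 5 not past the test, where 17.5% of all genes were lower and 18.0% higher. The somatic factor gene tj was at 0.87 ± 0.24 (adjusted p = 0.00216), and Cad74A and Vml were at −2.40 ± 0.23 and −1.36 ± 0.47 in the authors' deposited table. Not past the test were br (0.64 ± 0.36), Yp1 (−0.40 ± 0.46), Yp3 (−0.82 ± 0.40), Vm26Aa (−0.66 ± 0.52) and Fas3 (−0.70 ± 0.33). A shift in the stages of the egg chambers sampled and a change of the junction genes within a stage cannot be told apart in these libraries.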

How the data were processed

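Per the labels' protocols, RNA from an RNAqueous-Micro kit was selected with oligo-dT and sequenced from ScriptSeq v2 libraries. The tools named in the submitters' processing notes are DESeq2 1.2.10, HTSeq 0.6.1 and TopHat2 2.0.10, with the build BDGP5. The authors' deposited table gives, per the file headers, a mean normalised count (a signal scaled by size factors), a log2 fold change with its standard error, the Wald score of their ratio, and p-values before and after adjustment, used as deposited. The authors' version of DESeq2 shrinks the folds of low genes by default; whether they kept that default is not stated. Columns of other samples numbered 0. The 5 rows that name no gene, 47.0% of the summed means, were left out; 3032 genes were listed at 0, and 4189 had an unadjusted p under 0.05.

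The members and lists were chosen with earlier results of these data known. Older symbols were matched through RefSeq synonyms, with 5 list entries not matched. Lengths are unions of exons in the BDGP6 annotation, matched by name for 98.1% of the 7887 genes whose mean reached 50. Because the builds differ, no coordinates were used; neighbours and shared exons are those of BDGP6. The trend of fold change on log2 length was fitted by lowess in statsmodels 0.14.6 with a span of 0.3 and subtracted; new p-values came from the corrected fold over its standard error with Benjamini-Hochberg adjustment; the step was tested on simulated data. Intervals are the fold ± 1.96 standard errors. Names follow a rule: all members, list genes called with a mean of 50 or more (up to 6 a list), and the most abundant relative in each family; other named genes, among them the neighbours, Pomp and those not past the test, were chosen after their values were seen.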

Additional observations from a re-analysis of the deposited data

How the results depend on the processing

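All 10 core genes were lower, and 0 higher, at thresholds of 0.01 and 0.1, with adjustment over every gene with a p-value, at a mean of at least 50, with folds centred on the median over all genes, or on that over 84 ribosomal protein genes (0.93), and with the length trend removed. Their median was −1.43 centred on all genes, −2.35 centred on the ribosomal protein genes and −1.12 with the length trend removed. The count of other pleated genes that were lower ran from 12 to 19 over these alternatives, against 14. Of adherens junction genes, 4 were lower as deposited, 1 at a threshold of 0.01, 10 centred on the ribosomal protein genes, and 1 lower and 1 higher with the length trend removed. Over all genes, 1304 were lower and 872 higher with the length trend removed, and 5341 and 95 centred on the ribosomal protein genes. That centring turned the sign of 16 of 73 genes compared, of which 7 then passed the test: wun (−0.78), Rab11 (−0.89), Vps35 (−0.75), arm (−0.93), p120ctn (−0.91), pyd (−0.88) and Ptpmeg (−0.84). Removal of the length trend turned 16 of 70 and centring on all genes 1 (arm), 0 of these past the test afterwards; no gene whose sign turned was past the test as deposited. The first centring put the median of the smooth septate genes at −0.66 and ended the call of metro (0.15). Except where the shift follows from the centring itself, the cause was not tested. No paired analysis was possible because the table holds no values per library, and for the same reason no library could be left out. Levels per kb of the 10 core genes kept within 1.5 times when the longest transcript replaced the exon union.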
